A study of Mus musculus with 9 samples.

Results

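The genes described here are the Wnt pathway's ligands, receptors, secreted antagonists and nuclear effectors. They were chosen by name: symbols made of Wnt, Fzd, Sfrp or Dkk followed by a digit, together with Lrp5, Lrp6, Axin1, Axin2, Ctnnb1, Lef1, Tcf7, Tcf7l1, Tcf7l2, Porcn and Wls. No measured value entered the choice. The rule found 48 genes, on 59 probes, among 32450 genes or unnamed identifiers on the array. They comprise 19 Wnt ligands, 2 factors of ligand secretion, 10 Frizzled receptors, 2 LRP co-receptors, 8 secreted antagonists, 3 genes for beta-catenin and the Axin scaffolds, and 4 TCF/LEF transcription factors.

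The study compared mouse embryonic stem (ES) cells with Max knocked down, control ES cells and primordial germ cells (PGCs). Max is the dimer partner of MYC and MGA, and sperm and eggs descend from PGCs. Both ES cell groups were of VV3, a single male line of 129SV background that carries the yellow fluorescent protein Venus under the Ddx4 promoter. Ddx4, also called Vasa, encodes an RNA helicase of germ cells. Controls received non-silencing AllStars siRNA and were sorted 3 days later as live single cells, without a Venus gate. The knockdown cells received siRNA against Max and only those positive for Venus were collected, so the siRNA and the gate differed together. PGCs came from embryos of an MCH x C57BL6/J cross at E13.5. Male genital ridges were taken and cells with GFP from the Oct4ΔPE reporter were sorted. They differ from the ES cells in strain, in reporter and in having grown in an embryo. Each group was measured on 3 Agilent arrays of 1 colour. The design text calls the replicates biological; separate cultures or embryo pools are not described, so p-values measure the spread between these samples.

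Wnt proteins are lipid-modified by Porcn and carried to the cell surface by Wls, and they bind a Frizzled receptor together with Lrp5 or Lrp6. The signal stops the Axin complex from destroying beta-catenin (Ctnnb1), which then joins the DNA-bound TCF/LEF factors, while secreted Sfrp and Dkk proteins act on ligands or co-receptors outside the cell. In mouse ES cells, Wnt signalling is known to favour self-renewal and Tcf7l1 is known as a repressor of pluripotency genes, and in the fetal gonad Wnt ligands act between somatic and germ cells.

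RefSeq promoter windows of assembly GRCm38.p6, from 250 bases before a transcription start to 50 after it, were held for 32 of the 48 genes, in 41 windows. They were searched on both strands for CACGTG, the E-box that MAX dimers can bind, CTTTGA, the core of TCF/LEF sites, TCCCGC, an E2F-type element, and GGTGTG, a T-box half-site. The E-box stood in 3 of 41 windows (7.32%), against 7.15% of all 32851 windows of that length. CTTTGA stood in 5 (12.2% against 16.0%), TCCCGC in 17 (41.5% against 20.0%) and GGTGTG in 8 (19.5% against 19.0%). The windows of the Wnt genes had a median GC content of 67.3%, against 52.7% for all windows. The 3 windows with an E-box are shown first, since Max was the gene knocked down, followed by that of Wnt3, which differed most between PGCs and ES cells. Capitals mark every match to any of the 4 motifs, which do not overlap here, and each sequence is written 5′ to 3′ along its gene. The windows lie at chr3:131156044-131156343 on the plus strand (Lef1), chr5:135250998-135251297 on the minus strand (Fzd9), chr11:59306680-59306979 on the plus strand (Wnt9a) and chr11:103773925-103774224 on the plus strand (Wnt3).
Lef1: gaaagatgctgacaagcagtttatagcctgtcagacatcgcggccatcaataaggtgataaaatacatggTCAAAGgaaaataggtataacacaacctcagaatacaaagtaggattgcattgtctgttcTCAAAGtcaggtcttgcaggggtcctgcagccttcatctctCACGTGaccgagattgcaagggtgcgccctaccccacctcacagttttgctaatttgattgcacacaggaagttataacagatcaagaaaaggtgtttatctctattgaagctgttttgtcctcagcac
Fzd9: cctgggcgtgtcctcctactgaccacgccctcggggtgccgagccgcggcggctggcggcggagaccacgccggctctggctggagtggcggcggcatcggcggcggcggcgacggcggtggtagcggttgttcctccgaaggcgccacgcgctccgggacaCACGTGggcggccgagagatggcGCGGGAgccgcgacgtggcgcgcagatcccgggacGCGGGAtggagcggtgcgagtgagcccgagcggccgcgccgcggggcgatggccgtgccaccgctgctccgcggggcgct
Wnt9a: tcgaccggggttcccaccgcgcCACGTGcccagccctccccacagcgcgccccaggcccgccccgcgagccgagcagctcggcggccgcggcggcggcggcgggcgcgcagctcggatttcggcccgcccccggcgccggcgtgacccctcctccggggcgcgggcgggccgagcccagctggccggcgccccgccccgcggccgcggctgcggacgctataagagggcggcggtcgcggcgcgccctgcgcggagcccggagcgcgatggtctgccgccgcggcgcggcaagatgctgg
Wnt3: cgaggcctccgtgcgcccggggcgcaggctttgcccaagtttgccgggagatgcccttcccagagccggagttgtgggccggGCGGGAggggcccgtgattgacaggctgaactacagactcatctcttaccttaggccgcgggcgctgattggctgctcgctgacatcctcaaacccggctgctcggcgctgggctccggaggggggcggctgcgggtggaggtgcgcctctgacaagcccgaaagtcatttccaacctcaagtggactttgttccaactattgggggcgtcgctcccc
The Lef1 window belongs to a start downstream of the gene's first one, and the windows at the first starts of Lef1 held no match. Its E-box begins at position -79 from that downstream start, with TCF/LEF cores at -180 and -120. The E-boxes of Fzd9 and Wnt9a begin at -88 and -228. Of these 3 genes, Lef1 was called higher and Fzd9 and Wnt9a lower in knockdown cells, the last a call that was lost without single arrays. A match is a stretch of letters and was not tested as a binding site.

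Levels are log2 of the processed spot signal relative to the 75th percentile of each array, and values of different genes are not compared. To be tested, a gene's probe had to be well above background on every array of some group, and 40 of the 48 Wnt genes passed, among 20443 in all. The 8 that did not pass were the ligands Wnt2, Wnt2b, Wnt3a, Wnt7a, Wnt8b and Wnt10b and the antagonists Dkk2 and Dkk4. Wnt2, Wnt2b, Wnt3a, Wnt10b and Dkk2 were above background on no array. Across the 9 arrays, 27 of the 48 were above background throughout. All 3 arrays of a group measured 37 genes in control cells, 33 in knockdown cells and 32 in PGCs, while 5, 10 and 11 were measured on no array of these groups. Wnt3, Wnt9b and Axin2 passed only through the PGCs, and Wnt5a and Wnt10a only through control cells, so these 5 had to be high in that group to be tested at all.

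The labels were checked on 3 genes, and 58.2% to 67.6% of the spots were well above background on the arrays. The level of Max was 2.84, 2.74 and 2.85 in control cells, 0.59, 0.83 and 1.13 in knockdown cells and at 3.77, 3.65 and 3.57 in PGCs. Ddx4, which the Venus gate reads, was higher by 2.64 in knockdown cells and by 3.71 in PGCs than in control cells. Pou5f1, the pluripotency factor Oct4 and the source of the PGC reporter, differed from control by 0.04 (SE 0.12) and -0.11 (SE 0.12). Slide 1 held control 1 and 2 with knockdown 1 and 2, slide 2 held control 3 with knockdown 4, and slides 3 and 4 held the PGCs, so PGC and slide cannot be told apart.

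**Figure D1:**
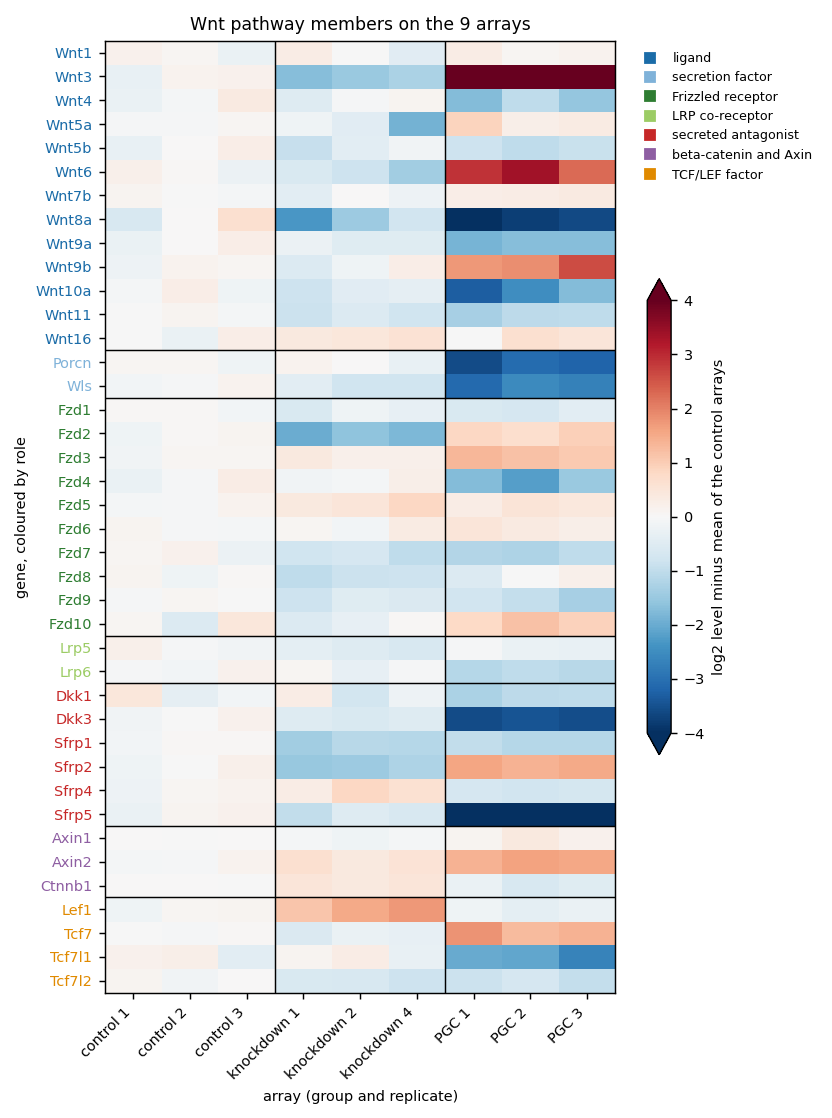
Each row is one of the 40 Wnt genes tested, ordered and coloured by role, and each column one of the 9 arrays; colour gives the log2 level minus the mean of the 3 control arrays, and values beyond -4 or 4 share the end colours. Wnt3 and Wnt6 stand out as high in the PGC columns and Sfrp5, Dkk3, Wnt8a and Porcn as low, while Lef1 is high and Fzd2, Sfrp1 and Sfrp2 are low in the knockdown columns.

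The first comparison sets the Max knockdown cells, collected by Venus, against control ES cells. Of the 40 Wnt genes tested, 17 fell and 5 rose. The falls covered 5 of 13 ligands, 5 of 10 Frizzled receptors, the co-receptor Lrp5, the ligand carrier Wls and 4 of 6 secreted antagonists, among them Fzd2 (3.48-fold lower), Sfrp2 (2.65-fold lower) and Sfrp1 (2.30-fold lower). The genes that rose were Lef1 (2.75-fold higher), Ctnnb1, Axin2, Fzd5 and Sfrp4. These calls are from limma with an adjusted p threshold of 0.05 (Benjamini-Hochberg over all genes tested), by which 40.1% of all genes were called, 18.2% higher and 21.9% lower. The Wnt genes had a median log2 difference of -0.39, against -0.07 over all genes. The arrays of the groups did not overlap for 27 of the 40, against 54.1% of all genes. Most shifts were small: 6 of the 22 calls reached 2-fold (11.1% of all genes did) and 16 did not. With scaling on spike-in transcripts, no sign of the 22 turned, but only Fzd2 remained called, where 4.92% of all genes were called. With normexp background correction that left out spots of disturbed local background, 13 remained called, where 33.8% of all genes were called. Those no longer called were Wnt3, Wnt6, Wnt9a, Wnt11, Wls, Fzd1, Fzd8, Sfrp4 and Axin2.

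Among the ligands no gene was called higher, though Wnt16 (0.47, arrays without overlap) was with slide as a block (adjusted p = 0.018). Wnt8a, a ligand of early mesoderm, stood at -3.60, -2.96 and -2.34 in control cells and at -5.30, -4.42 and -3.74 in knockdown cells. Every knockdown array lay below every control array, though both groups spread by more than 1 log2 unit. The fall of 1.52 (log2 -1.52, SE 0.45, limma adjusted p = 0.026) was no longer called without control 2 or 3 or knockdown 1 or 2 (adjusted p up to 0.084). Wnt3 was at background in both groups, with 1 control array and no knockdown array above it, and the difference called for it (-1.49) was -0.11 (adjusted p = 0.37) with that normexp correction. Wnt11, which acts largely outside the beta-catenin branch, fell by 0.73 (log2 -0.73, SE 0.12, adjusted p = 0.0021), but differed by -0.34 (adjusted p = 0.12) with the normexp correction. Its levels were -3.32, -3.20 and -3.40 in control cells and -4.17, -3.84 and -4.10 after knockdown. Wnt6 (-0.94, SE 0.29) and Wnt9a (-0.41, SE 0.14) also fell, but each call was lost without any of several single arrays: control 1 or 2 or knockdown 2 or 4 for Wnt6 (adjusted p up to 0.098), control 2 or 3 or knockdown 2 or 4 for Wnt9a (adjusted p up to 0.14). Wnt9a was also not called with slide as a block (limma adjusted p = 0.080). The 8 ligands not called ranged from -0.83 for Wnt5a to 0.47 for Wnt16. Wnt5a, a ligand that signals through Ror receptors, was above background on 3 control arrays and 1 knockdown array, and its interval ran from -1.75 to 0.08.

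Of the factors that prepare and carry the ligands, 1 fell and 1 was not called. Wls was at -2.14, -2.07 and -1.90 in control cells and at -2.46, -2.82 and -2.82 in knockdown cells, which did not overlap. It fell by 0.67 (log2 -0.67, SE 0.16, adjusted p = 0.012), a call lost within slide 1 alone (-0.54, adjusted p = 0.063) and with the normexp correction (-0.40, adjusted p = 0.088). Porcn, the acyltransferase of the pathway, stood at 3.00, 3.02 and 2.76 against 3.08, 2.93 and 2.62 and was not called, with a difference of -0.05 and an interval from -0.42 to 0.32.

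Fzd2 showed the largest difference of any Wnt gene in these cells. It stood at 1.10, 1.31 and 1.38 in control cells and at -0.73, -0.35 and -0.53 in knockdown cells. Both groups were tight and far apart, and Fzd2 fell by 1.80 (log2 -1.80, SE 0.13, adjusted p = 3.5e-05). A separate probe of Fzd2 gave -1.69, and the difference was -1.75 within slide 1 and -1.90 within slide 2. Fzd7, a receptor known for its part in pluripotent cells, was at 0.21, 0.28 and -0.12 in controls and at -0.68, -0.56 and -0.90 after knockdown. Its fall was 0.84 (log2 -0.84, SE 0.14, adjusted p = 0.0017), or -0.87 by its other probe. Fzd8 (-0.90, SE 0.18), Fzd9 (-0.63, SE 0.15) and Fzd1 (-0.38, SE 0.13) were also lower, and Fzd8 was at -0.42 (adjusted p = 0.057) with the normexp correction. The call of Fzd1 was lost with slide as a block (adjusted p = 0.069) and without control 1, 2 or 3 or knockdown 1 or 4 (adjusted p up to 0.12). Fzd5 was the only Frizzled gene called higher, by 0.58, and its other probe gave 0.42 (adjusted p = 0.069). Fzd3, Fzd4, Fzd6 and Fzd10 were not called. Of the co-receptors, Lrp5 fell by 0.52 (log2 -0.52, adjusted p = 0.010), while Lrp6 differed by -0.10 with an interval from -0.38 to 0.19.

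Of the 6 secreted antagonists tested 4 were called lower and 1 higher, where 21.9% and 18.2% of all genes were. Sfrp2, which binds Wnt ligands, stood at 0.17, 0.30 and 0.53 in control cells and at -1.19, -1.11 and -0.91 in knockdown cells. Sfrp1, of the same family, was at -0.05, 0.09 and 0.11 against -1.34, -1.05 and -1.08. Neither gene showed any overlap between the groups. Sfrp2 fell by 1.40 (log2 -1.40, SE 0.12, adjusted p = 7.9e-05) and Sfrp1 by 1.204 (log2 -1.204, SE 0.11, adjusted p = 8.7e-05). Within slides 1 and 2 the differences were -1.38 and -1.44 for Sfrp2 and -1.21 and -1.19 for Sfrp1. Sfrp5 (-0.72) and Dkk3 (-0.54), a distant member of the Dickkopf family, fell too. Sfrp4 was higher by 0.58, a call that was lost without control 1 or knockdown 2 (adjusted p up to 0.056) and with quantile normalization (adjusted p = 0.062). Dkk1, a blocker of Lrp5 and Lrp6, was not called (-0.21, interval -0.85 to 0.44).

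Beside these falls, the markers of other cell types moved in part. The summed linear level of 10 fibroblast markers ran from 4.88 to 6.89 in control cells and from 2.17 to 2.504 in knockdown cells, and 6 of the 8 tested fell. Of these markers, 8 were above background on all control arrays and 2 (Postn and Lum) on none. Of 9 primitive endoderm markers 5 fell, with sums of 98.3 to 107.5 and 89.3 to 102.9, and all 9 were above background on the control arrays. Of the 6 streak and mesoderm markers tested 4 fell, with sums over 8 markers of 1.11 to 1.46 and 0.86 to 0.99. The sum of 7 neuroectoderm markers ran from 3.57 to 4.14 in control and from 1.66 to 1.91 in knockdown cells, and 3 of the 5 tested fell, Nes by 1.67 (log2 -1.67). In both groups 5 of these 7 were above background on all arrays, and Neurog2 was on none. The other lists did not mostly fall. Of 5 blood and endothelium markers tested 2 rose and 0 fell, of 15 gonadal somatic markers 2 rose and 3 fell, and of 8 ES cell markers 2 rose and 1 fell. Of all genes tested, 18.2% were called higher and 21.9% lower. The part of such cells in the lower levels of Fzd2, Sfrp1, Sfrp2 and Wnt8a was not tested. In sorted cells measured in bulk, fewer cells of a type and less RNA per cell cannot be told apart.

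Of the beta-catenin and Axin genes, 2 of 3 were called higher, where 18.2% of all genes were. Ctnnb1, beta-catenin itself, stood at 3.25, 3.25 and 3.22 in control cells and at 3.71, 3.62 and 3.71 in knockdown cells. The groups were separated by far more than their spread, and Ctnnb1 rose by 0.45 (SE 0.10, adjusted p = 0.0093). Axin2, a feedback inhibitor that Wnt signalling itself induces, was at -5.63, -5.59 and -5.39 against -4.89, -5.15 and -4.99. It was called higher by 0.53 (adjusted p = 0.0054), but only 1 array of each group was above background, and the normexp correction gave 0.20 (adjusted p = 0.29). The other Axin2 probe was above background on no array, and averaging the probes lost the call (0.45, limma adjusted p = 0.060). Axin1, the constitutive scaffold, was not called (-0.11).

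Of the 4 TCF/LEF genes 1 rose, 1 fell and 2 were not called, where 40.1% of all genes were called. Lef1, largely an activator and itself a Wnt target, stood at 0.68, 0.92 and 0.95 in control cells and at 1.97, 2.37 and 2.59 in knockdown cells. All knockdown arrays were above all control arrays by at least a full log2 unit, and Lef1 rose by 1.46 (SE 0.16, adjusted p = 0.00025). The rise was 1.36 within slide 1 and 1.65 within slide 2. Tcf7l2 was at -1.95, -2.22 and -2.05 against -2.69, -2.70 and -2.90, and fell by 0.69 (log2 -0.69, SE 0.11, adjusted p = 0.0016), or -0.70 by another probe. Tcf7, another activator and target, was at -1.21, -1.23 and -1.14 against -1.76, -1.46 and -1.53. Its groups did not overlap, yet the difference of -0.39 missed the threshold (adjusted p = 0.061). It passed with slide as a block (adjusted p = 0.026), and another probe of Tcf7 gave -0.54 (adjusted p = 0.013). Tcf7l1, the repressor, was at -0.62, -0.56 and -1.21 against -0.69, -0.50 and -1.10, and its difference of 0.03 had an interval from -0.52 to 0.59.

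**Figure D2:**
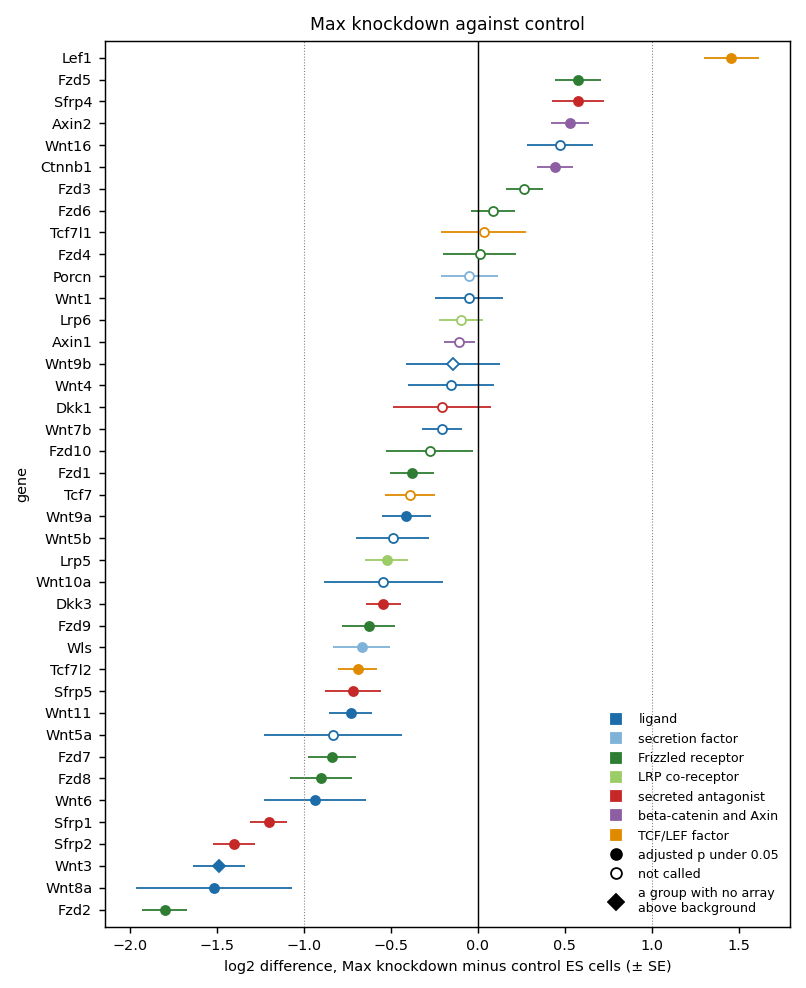
Points give the log2 difference of Max knockdown minus control ES cells for the 40 Wnt genes tested, bars the standard error of the fit over 9 arrays (3 a group), colour the role, and filled points an adjusted p under 0.05; dotted lines mark a 2-fold difference and diamonds a group with no array above background. Lef1 at 1.46 stands alone on the right, and Fzd2, Wnt8a, Wnt3, Sfrp2 and Sfrp1 lie beyond 2-fold on the left.

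The second comparison sets PGCs against control ES cells. Wnt3 was higher in PGCs by a fitted 78.6-fold, against control arrays of which 1 of 3 was above background. The ligands Wnt6 (7.15-fold) and Wnt9b (4.20-fold), the feedback gene Axin2 (2.86-fold), Sfrp2 (2.82-fold) and Tcf7 (2.79-fold) were higher as well on the scale of the 75th percentile; with spike-in scaling only Wnt3 and Wnt6 were still called higher. Both secretion genes were lower: Porcn 9.77-fold and Wls at least 6.91-fold. The antagonists Sfrp5 (at least 12.4-fold) and Dkk3 (11.6-fold), the ligand Wnt8a (at least 4.58-fold) and the repressor Tcf7l1 (4.75-fold) were lower too. In all, 12 of the 40 genes tested were called higher and 21 lower, where 75.6% of all genes were called, 43.2% higher and 32.4% lower. The 12 include Fzd5, whose probes disagree, and Wnt3, Wnt9b and Axin2, which passed the filter only through the PGCs. The 21 include Wnt10a, which passed only through control cells. The median of the Wnt genes was -0.52, against 0.18 over all genes. Of the 40 genes 23 were called and reached 2-fold, as did 40% of all genes. The arrays of the groups did not overlap for 35 of the 40, against 78.5% of all genes.

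Calls in the PGC comparisons are relative to the 75th percentile. Scaling on spike-in transcripts moved the median of all genes from 0.18 to -0.77, a shift of -0.95, 23 of the 33 genes remained called in their direction, and higher calls made up 8.33% of the called Wnt genes instead of 36.4%. Wnt9b (1.12, adjusted p = 0.067), Axin2 (0.56, adjusted p = 0.39), Sfrp2 (0.54, adjusted p = 0.41), Tcf7 (0.52, adjusted p = 0.43), Fzd3 (0.22, adjusted p = 0.76) and Fzd10 (0.017, adjusted p = 0.98) kept their sign there and lost their calls. The sign of Fzd2, Fzd5, Fzd6 and Wnt7b turned with spike-in scaling, to -0.14, -0.54, -0.59 and -0.65, and none of the 4 was called there. "At least" marks a lower bound, used where no PGC array was above background by any probe of the gene and taken against the lowest signal well above background on those arrays, or the gene's own signal where higher.

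Wnt3, a ligand known from gastrulation, was at 0.72, 0.73 and 0.73 in PGCs, against -5.86, -5.43 and -5.41 in control cells. All 3 PGC arrays agreed to a hundredth or so, and 1 of the 3 control arrays was above background. Wnt3 was higher by 6.30 (SE 0.15), with no p-value given because it passed the filter only through the PGCs. Wnt6 stood at -0.52, -0.07 and -1.16 in PGCs and at -3.22, -3.38 and -3.66 in control cells. It was higher by 2.84 (SE 0.29, limma adjusted p = 2.7e-05). The PGC arrays of Wnt6 spread over a full log2 unit without reaching the controls. Wnt9b, known from the urogenital system, stood at -3.81, -3.67 and -2.92 in PGCs and at -5.75, -5.41 and -5.45 in control cells, where 1 array was above background. Wnt9b was higher by 2.07 (SE 0.27), and it too passed the filter only through the PGCs. Wnt7b was called higher by 0.31, a call lost without any of control 2 or 3 and PGC 1, 2 or 3 (adjusted p up to 0.11). Wnt1, Wnt5a and Wnt16 were not called, at 0.18, 0.49 and 0.38.

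The 6 remaining ligands called were lower in PGCs. Wnt8a was at -7.47, -6.74 and -6.56 there and above background on none of these arrays, whereas all 3 control arrays measured it (adjusted p = 4.9e-05). Wnt10a stood at -4.79, -4.43 and -4.87 in control cells and at -7.99, -7.20 and -6.44 in PGCs. Wnt4, an ovarian determination factor, stood at -4.20, -4.02 and -3.58 in control cells and at -5.67, -4.94 and -5.48 in PGCs. Neither was above background on a PGC array. Wnt4 was at least 2.30-fold lower (limma adjusted p = 0.00069). Wnt10a was at least 1.38-fold lower, with no p-value given because it passed the filter only through control cells. With the normexp correction both calls were lost, at -0.27 (adjusted p = 0.20) for Wnt10a and -0.24 (adjusted p = 0.21) for Wnt4. Wnt9a was at -2.51, -2.24 and -1.99 against -4.10, -3.95 and -3.96 in PGCs, a fall of 1.76 (log2 -1.76, SE 0.14, adjusted p = 5.4e-06). Wnt11, at -4.64, -4.34 and -4.33 in PGCs, was lower (log2 -1.13, adjusted p = 4.3e-05), and Wnt5b differed by -0.92. The ligand genes therefore split between the groups, with no common direction.

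Porcn was the secretion gene that could be measured throughout. It stood at -0.64, -0.15 and -0.29 in PGCs, against 3.00, 3.02 and 2.76 in control cells. The gap was many times the spread of either group, and the difference was -3.29 (SE 0.16, adjusted p = 3.2e-07). Wls was at -5.14, -4.57 and -4.75 in PGCs and above background on none of them (adjusted p = 8.5e-07).

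Frizzled genes went both ways. Fzd3 stood at -0.97, -0.75 and -0.76 in control cells and at 0.50, 0.33 and 0.22 in PGCs, and was higher by 1.18 (SE 0.11, adjusted p = 1.4e-05). Fzd10 was at -0.01, -0.63 and 0.36 against 0.71, 1.08 and 0.84 in PGCs (0.97, SE 0.25, adjusted p = 0.0067). Fzd2 was at 2.10, 1.93 and 2.21 in PGCs, higher by 0.82 (SE 0.13, adjusted p = 0.00042), or 1.28 by its other probe. For these 3 receptors no PGC array overlapped a control array. Fzd4, a receptor of Norrin as well as of Wnt ligands, was lower: its levels were -1.68, -1.48 and -1.13 in control cells and -3.15, -3.63 and -2.92 in PGCs (log2 -1.80, SE 0.21, adjusted p = 5.7e-05). Fzd7, at -1.04, -1.10 and -0.88 in PGCs, differed by -1.13 (adjusted p = 7.4e-05), or by -0.44 (adjusted p = 0.040) with its other probe. Fzd9 stood at -0.41, -0.29 and -0.38 in control cells and at -1.12, -1.30 and -1.69 in PGCs (log2 -1.01, adjusted p = 0.00031). Fzd1 was lower (log2 -0.57), a call lost with the normexp correction (-0.18, adjusted p = 0.27), and Fzd8 was not called. The probes of Fzd5 disagreed: the probe used gave 0.41, and the other gave -1.89 (adjusted p = 7.6e-06), so no direction is given for Fzd5 in PGCs. The call of Fzd6 (0.37) was lost without control 2 or 3 or PGC 1 or 2 (adjusted p up to 0.079). Of the co-receptors, Lrp6 stood at 1.76, 1.70 and 2.001 in control cells and at 0.69, 0.82 and 0.72 in PGCs. Lrp6 was lower (log2 -1.08, SE 0.13, adjusted p = 6.2e-05), or -0.71 by its other probe. Lrp5 was not called (-0.21, interval -0.49 to 0.08).

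All 6 antagonists tested were called, 5 of them lower, where 75.6% of all genes were called and 32.4% were lower. Sfrp5 was at -1.82, -1.44 and -1.36 in control cells and at -5.75, -5.89 and -5.98 in PGCs, where no array was above background (adjusted p = 7.7e-08). Dkk3 stood at -0.17, -0.04 and 0.15 against -3.61, -3.48 and -3.57 in PGCs, a difference of -3.53 (SE 0.10, adjusted p = 2.1e-08). Dkk3 was measured on all arrays, and its groups lay more than 3 log2 units apart. Sfrp1 was at -0.94, -1.08 and -1.11 in PGCs (log2 -1.09, SE 0.11, adjusted p = 1.9e-05). Dkk1 stood at -2.67, -3.51 and -3.23 in control cells and at -4.41, -4.18 and -4.15 in PGCs (log2 -1.11, SE 0.28, adjusted p = 0.0061). Sfrp4 differed by -0.71 and was above background on 1 PGC array. The normexp correction gave -0.29 (adjusted p = 0.24) for Dkk1 and -0.07 (adjusted p = 0.67) for Sfrp4, and neither was called. Sfrp2 alone was higher, at 1.92, 1.72 and 1.85 in PGCs, by 1.498 (SE 0.12, adjusted p = 5.8e-06).

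In the cell interior, Ctnnb1 stood at 2.97, 2.58 and 2.77 in PGCs and was lower (log2 -0.47, SE 0.10, adjusted p = 0.0031). Axin2 stood at -4.16, -3.92 and -3.98 in PGCs, all above background, and was higher by 1.52 (SE 0.11). Its other probe was above background on no array of any group, so this rise rests on the probe used. Axin2 passed the filter only through the PGCs, so no p-value is given. Axin1 narrowly missed the threshold (0.22, adjusted p = 0.052). Tcf7 was at 0.59, 0.07 and 0.20 in PGCs, higher by 1.48 (SE 0.14, adjusted p = 1.9e-05), or 1.34 by its other probe. Tcf7l1 was at -2.82, -2.86 and -3.45, lower (log2 -2.25, SE 0.24, adjusted p = 3.8e-05). The arrays of neither gene overlapped between the groups, and with spike-in scaling Tcf7l1 was still called and Tcf7 was not. Tcf7l2 was at -2.94, -2.75 and -3.01 (log2 -0.83, adjusted p = 0.00015), and a further probe put it lower still (log2 -2.73, adjusted p = 3.2e-06). Lef1, at 0.69, 0.47 and 0.58, overlapped the controls and was not called (-0.27, interval -0.64 to 0.09), while with spike-in scaling it was called lower (log2 -1.22, adjusted p = 0.042).

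Markers of the gonadal cells that surround PGCs were in part higher in the PGC arrays. Their summed linear level over 18 genes was 11.7, 14.6 and 7.79 in PGC 1, 2 and 3, against 5.93 to 6.64 in control and 6.33 to 6.56 in knockdown cells. Of the 15 tested, 8 were higher and 2 lower than in control cells, where 43.2% of all genes were higher and 32.4% lower. Among the 8 were Amh of Sertoli cells (at least 7.42-fold higher) and the steroidogenic regulator Nr5a1 (2.39 on the log2 scale). On all PGC arrays 13 of the 18 were above background and 1, Cbln4, was on none. On the same arrays Wnt6 stood at -0.52, -0.07 and -1.16, Wnt3 at 0.72, 0.73 and 0.73 and Wnt9b at -3.81, -3.67 and -2.92. An order over 3 arrays is too short to relate these genes to the sum. The part of these cells in the Wnt levels of the PGC arrays was not tested. Germ cell markers summed to 100.3 to 117.9 in PGCs, 35.6 to 40.0 in knockdown and 8.78 to 9.56 in control cells, and all 9 were above background on every PGC array. Primitive endoderm markers summed to 17.8 to 30.4 in PGCs against 98.3 to 107.5 in control cells. Of these 9 markers 7 were lower, against 32.4% of all genes, beside Sfrp5, Dkk3 and Wnt8a, and this too was not tested.

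**Figure D3:**
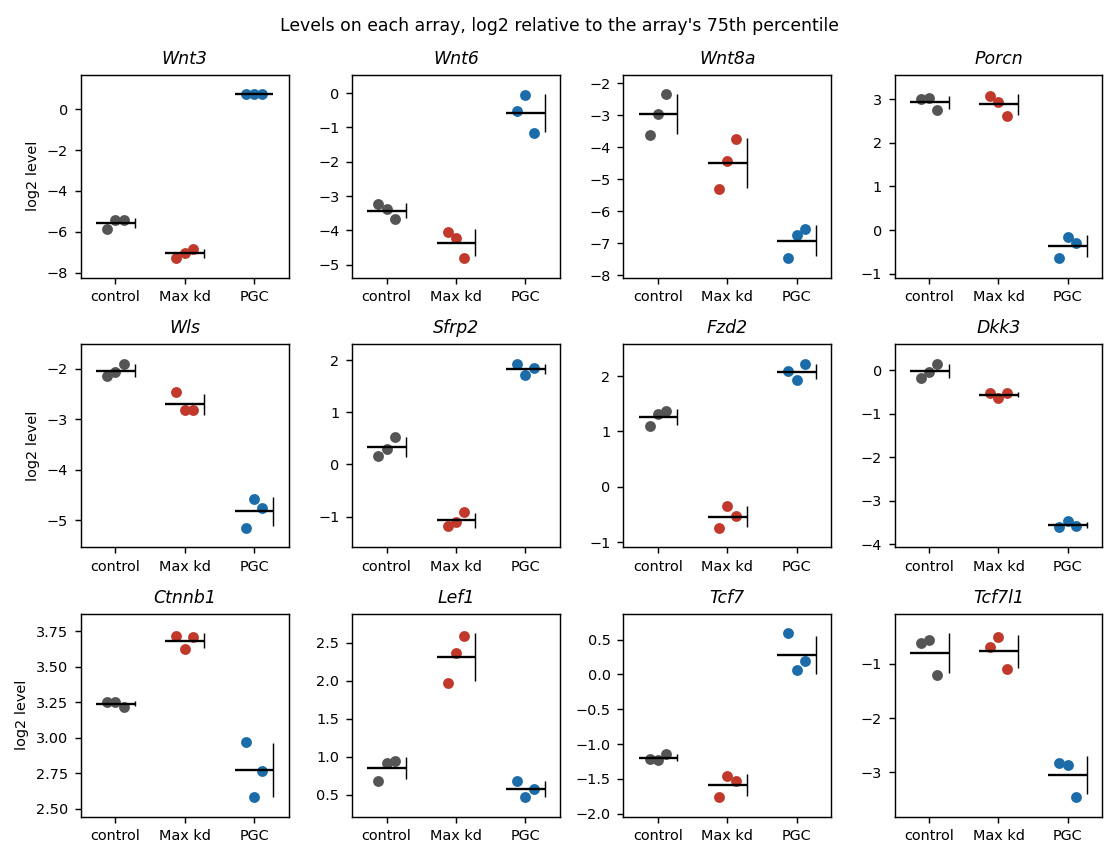
Log2 levels of 12 Wnt genes on each array relative to the array's 75th percentile, with 3 points a group, a line at the mean and a vertical bar of 1 SD to each side; scales differ between panels and do not start at 0. Wnt3 and Wnt6 are high in PGCs, Porcn, Wls, Dkk3 and Tcf7l1 are low there, Lef1 and Ctnnb1 peak in Max knockdown cells, and Sfrp2 and Fzd2 are lowest in them.

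The third comparison asks how far the Venus-positive knockdown cells stood from PGCs. It shares its arrays with both others, so its values are given side by side with them and not as separate evidence. The genes that set the cells apart were the ligands Wnt3 (at least 70.6-fold higher in PGCs), Wnt6 (13.7-fold) and Wnt9b (at least 3.86-fold), Sfrp2 (7.48-fold), Fzd2 (6.13-fold) and Tcf7 (3.65-fold), all higher in PGCs, though Tcf7 was not called with spike-in scaling (0.90, adjusted p = 0.16). Porcn (9.45-fold), Dkk3 (7.94-fold), Sfrp5 (at least 7.51-fold), Tcf7l1 (4.86-fold), Wls (at least 4.36-fold) and Lef1 (3.32-fold) were lower. Of the 40 genes 14 were called higher and 17 lower, where 76.3% of all genes were called, 44.9% higher and 31.4% lower. The 14 again include Wnt3, Wnt9b and Axin2, which passed the filter only through the PGCs. The median was -0.18, against 0.21 over all genes, and the arrays did not overlap for 30 of the 40, against 78.5% of all genes. With spike-in scaling, higher calls made up 20.8% of the called Wnt genes instead of 45.2%, and 12.1% instead of 58.8% of the calls over all genes. The signs of Axin1, Fzd3, Fzd8, Lrp5 and Wnt7b turned there without being called. Fzd10 (0.28, limma adjusted p = 0.71), Wnt5a (0.36, adjusted p = 0.62) and Axin2 (0.018, adjusted p = 0.98) kept their sign with spike-in scaling and lost their calls.

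For Fzd2 and Sfrp2, control cells lay between the other groups on the scale of the 75th percentile. With spike-in scaling Fzd2 (-0.14) and Sfrp2 (0.54) were not called between PGCs and control cells, so that order holds for the one scaling. Fzd2 differed between PGCs and knockdown cells by 2.62 (SE 0.13, adjusted p = 3.5e-07) against 0.82 between PGCs and control cells, and Sfrp2 by 2.90 (SE 0.12, adjusted p = 1.4e-07) against 1.498. Wnt6 differed by 3.78 (SE 0.29, adjusted p = 4.7e-06) against 2.84, and Tcf7 by 1.87 (SE 0.14, adjusted p = 4.6e-06) against 1.48. Between knockdown and control cells, however, Tcf7 was not called and the call of Wnt6 was lost without single arrays, so no order of those groups is given. Lef1 was lower in PGCs than in knockdown cells (log2 -1.73, SE 0.16, adjusted p = 1.4e-05) and was not called between PGCs and control cells. Ctnnb1 showed the same order, with -0.91 (SE 0.10, adjusted p = 5.1e-05) against -0.47.

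Other genes were lower in knockdown cells and lower still in PGCs. Dkk3 differed from PGCs by -2.99 (SE 0.10, adjusted p = 4.6e-08) in knockdown and by -3.53 in control cells. Wls and Wnt8a showed this order too, Wnt8a at least 1.60-fold lower in PGCs than in knockdown cells (adjusted p = 0.00099). Sfrp1 was at -1.34, -1.05 and -1.08 in knockdown cells and at -0.94, -1.08 and -1.11 in PGCs, and these arrays overlapped (difference 0.12, interval -0.13 to 0.36). Fzd7 (-0.29), Fzd1 (-0.19) and the probe used for Tcf7l2 (-0.14) were not called between these cells, but the other probes gave 0.42 (adjusted p = 0.047) for Fzd7 and -2.02 (adjusted p = 2.1e-05) for Tcf7l2. For Fzd5, the probe used gave -0.16 and the other -2.30.

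Porcn, Tcf7l1 and Fzd4 were not called between the ES cell groups and were lower in PGCs than in either. Porcn differed from PGCs by -3.24 (SE 0.16, adjusted p = 3.8e-07), Tcf7l1 by -2.28 (SE 0.24, adjusted p = 3.5e-05) and Fzd4 by -1.81 (SE 0.21, adjusted p = 5.5e-05) in knockdown cells. Against control cells these differences were -3.29, -2.25 and -1.80. Wnt9a was lower in PGCs (log2 -1.35, adjusted p = 3.0e-05) and Wnt4 at least 2.07-fold (adjusted p = 0.0013). Wnt10a was measured on 2 knockdown arrays and no PGC array, and its difference of -1.97 is of signals near background. Sfrp4 stood at -4.07, -3.52 and -3.76 in knockdown cells and at -5.03, -5.12 and -5.05 in PGCs, with 1 PGC array above background (log2 -1.29, adjusted p = 6.5e-05). Fzd10 was higher in PGCs than in knockdown cells, at -0.63, -0.42 and -0.06, by 1.25 (adjusted p = 0.0017). That call was lost with spike-in scaling. Wnt5a, at -5.00, -5.30 and -6.73 in knockdown cells and -3.96, -4.60 and -4.50 in PGCs, was above background on 1 array of each and lost its call of 1.33 without PGC 1 (adjusted p = 0.051). The calls of Dkk1 (-0.90), Wnt11 (-0.40), Lrp5 (0.32) and Fzd9 (-0.38) were also lost without 1 array or another (PGC 1 or knockdown 1 for Dkk1; PGC 1 or knockdown 2 for Wnt11; PGC 1 or 2 or knockdown 2 or 4 for Lrp5; PGC 2 or 3 or knockdown 2 or 4 for Fzd9), with adjusted p from 0.052 to 0.15. With the normexp correction Wnt4 (-0.17, adjusted p = 0.36), Wnt10a (-0.12, adjusted p = 0.57), Dkk1, Wnt11, Fzd9, Axin1 and Wnt7b were not called between PGCs and knockdown cells.

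**Figure D4:**
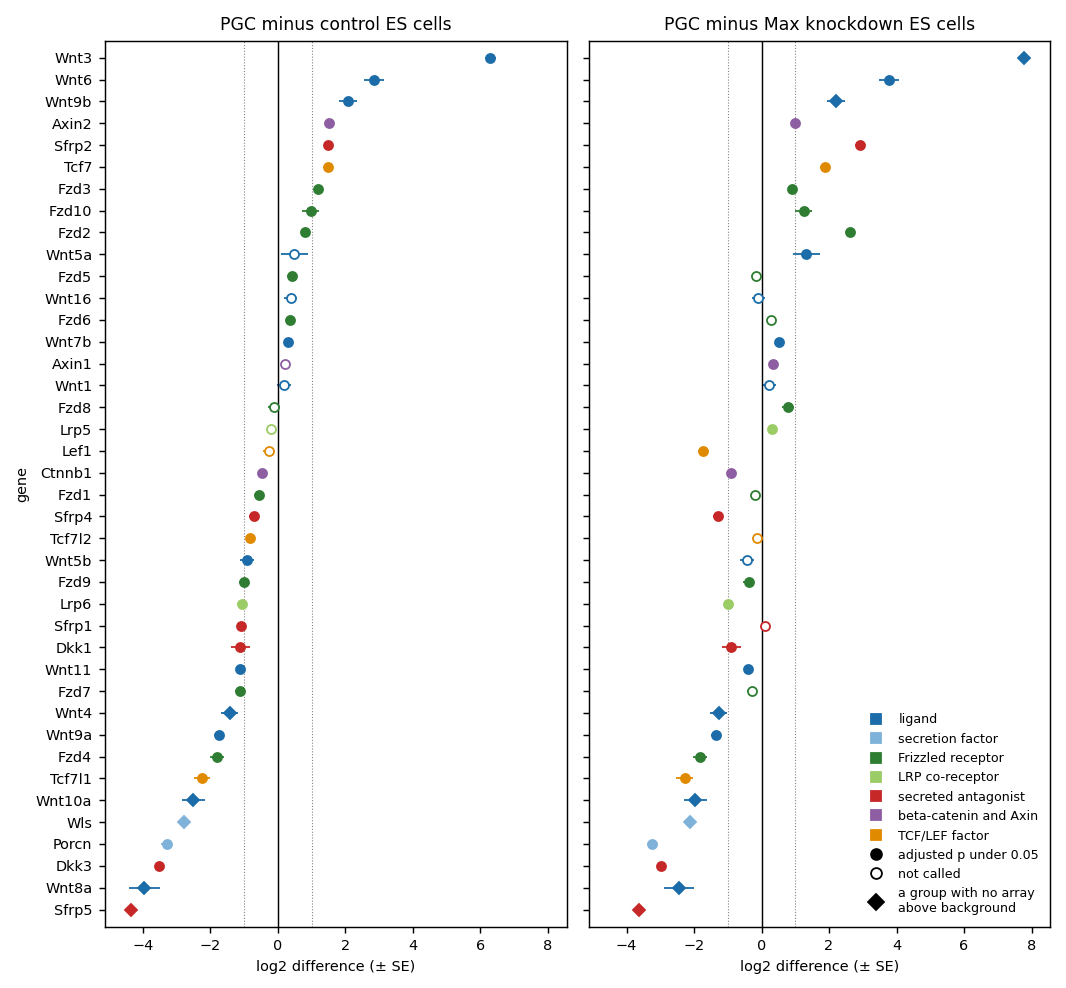
Log2 differences of PGCs minus control ES cells (left) and PGCs minus Max knockdown ES cells (right) for the 40 Wnt genes tested, in the order of the left panel; bars are the standard error of the fit over 9 arrays, filled points have an adjusted p under 0.05, and diamonds mark a group with no array above background, whose fitted difference is of signals at background. Wnt3 lies farthest right in both panels and Sfrp5 farthest left, while Lef1 and Fzd2 stand apart between the panels.

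Other genes of the pathway were read from lists by role. Of 26 cytoplasmic genes tested, 5 rose and 5 fell in knockdown cells (median -0.02), and 12 were higher and 5 lower in PGCs than in control cells (median 0.14). Daam2, a formin of the non-canonical branch, was at least 2.11-fold lower in knockdown cells (adjusted p = 3.7e-05) and at least 5.27-fold higher in PGCs than in knockdown cells. Btrc, the ubiquitin ligase adaptor for beta-catenin, rose by 1.10 and the casein kinase gene Csnk1e fell by 0.59 (log2 -0.59). In PGCs the adaptor Fbxw11 (1.45) and the kinases Csnk1d (1.43) and Csnk1g1 (1.27) had the smallest p against control cells. Against knockdown cells, 11 were higher and 4 lower in PGCs, with Fbxw11 at 1.46 and Csnk1e at 1.06. The shares called in the 3 comparisons were 38.5%, 65.4% and 57.7%, against 40.1%, 75.6% and 76.3% of all genes.

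Among 18 other receptors and receptor regulators, 8 fell and 1 rose in knockdown cells, with a median of -0.27. Prickle1, of planar polarity, fell by 1.75 (log2 -1.75, adjusted p = 8.5e-05), the R-spondin receptor Lgr4 by 1.01 (log2 -1.01) and the glypican Gpc3 by 1.11 (log2 -1.11). PGCs had 5 higher and 10 lower than control cells and 6 higher and 9 lower than knockdown cells. Prickle1 was higher there (3.06 and 4.80 in that order), and the polarity gene Celsr1 (-3.20 and -3.07) and the Wnt5a receptor gene Ror2 (-2.12 and -1.98) were lower. Of this list 9 of 18 were called after knockdown and 83.3% in each PGC comparison, against the 40.1%, 75.6% and 76.3% of all genes.

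Of 12 other agonists and antagonists of the pathway, not all of them secreted, 6 rose and 1 fell in knockdown cells, with a median of 0.33. Wif1, an inhibitor that binds Wnt ligands, was above background on no control array and was at least 5.55-fold higher in knockdown cells (adjusted p = 1.9e-05) and at least 28.05-fold higher in PGCs (adjusted p = 9.7e-08). Shisa3, which holds Frizzled proteins inside the cell, fell by 2.32 (log2 -2.32) after knockdown, and its relative Shisa2 rose by 0.75. PGCs had 7 higher and 4 lower than control cells and 5 higher and 5 lower than knockdown cells. Tmem88 (-3.76 and -4.32) and Dkkl1 (-3.76 and -3.87) were lower in PGCs, and Rspo1, an R-spondin of the fetal gonad, was higher than in knockdown cells by 3.30. The shares called were 58.3%, 91.7% and 83.3%, beside the 40.1%, 75.6% and 76.3% of all genes.

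Nuclear cofactors counted 5 rises and 5 falls of 27 in knockdown cells, 16 higher and 8 lower in PGCs against control, and 15 and 8 against knockdown cells. The corepressor subunit Tbl1x fell by 1.17 in knockdown cells (log2 -1.17, adjusted p = 2.1e-05), the coactivator gene Crebbp rose by 1.74 (adjusted p = 0.00018), and Kdm4d, a histone demethylase gene of the testis, was at least 5.80-fold higher. In PGCs the Groucho-family corepressors were split, with Tle6 lower (-2.55 and -2.71) and Tle1 higher (1.86 and 1.97). The repressor gene Hbp1 was higher than in control cells by 1.86, and Tbl1x higher than in knockdown cells by 1.25. The shares called were 37.0%, 88.9% and 85.2%, beside the same shares of all genes.

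Known targets of Wnt signalling, 5 of which are genes of the rule, counted 8 rises and 4 falls of 19 in knockdown cells (median 0.14). Besides Lef1, Zcchc12 (1.79) and Myc (1.33, adjusted p = 0.00068) had the smallest p. PGCs had 10 higher and 7 lower than control cells and 8 higher and 8 lower than knockdown cells. Sp5 was higher in PGCs (4.41 and 4.25), while Cdx1 (-3.31 and -4.48) and Myc (-3.16 and -4.48) were lower. The shares called were 63.2%, 89.5% and 84.2%. Genes known to be repressed by Tcf7l1 in ES cells, 2 of them of the rule, counted 6 rises and 1 fall of 13 in knockdown cells, with a median of 0.72. Lef1, Cdx1 (1.17) and Klf4 (0.92, adjusted p = 0.00052) rose, though Tcf7l1 itself was not called. In PGCs, where Tcf7l1 was lower, 2 of these genes were higher and 9 lower than in control cells (median -1.59), and 2 were higher and 11 lower than in knockdown cells. Nr0b1 (-4.84 and -4.96), Klf4 (-3.05 and -3.96) and Fgf4 (-9.996 and -9.58, with 1 PGC array above background) had the smallest p. The shares called were 53.8%, 84.6% and 100%, against 40.1%, 75.6% and 76.3% of all genes. These lists share genes with each other and were chosen with earlier results known, so their counts are descriptions.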

How the data were processed

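Total RNA (100 ng a sample) was labelled with Cy3, with spike-in transcripts added, and hybridised to 1-colour arrays, per the labels' protocols. The authors' scanner files hold spot intensities extracted with Agilent Feature Extraction 10.7.3.1, whose processed signal is background-subtracted and detrended, per the file headers. The deposited value table holds log2 values of the same arrays. Against scanner values scaled to the array's 75th percentile, with probe medians subtracted, its columns ran the same way (r at least 0.9999) with medians of -0.02, -0.12, -0.07, 0, 0, 0, 0, 0.34 and 0.39; further steps in it are unknown.

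Here, unflagged spots of a probe (43020 spots an array, none saturated) were averaged, log2 was taken and the array's 75th percentile subtracted. RefSeq accessions named 26006 of 39364 probes through a GRCm38.p6 table. The array header gives mm9, so that table served for names, neighbours and promoter sequences only. Of 10 Wnt genes with several probes, the one with the highest mean was used. One fit over 9 arrays was made with limma 3.58.1 (lmFit, eBayes; R 4.3.3), tested on simulated data. An exact permutation test of 1 gene, at 3 arrays a group, cannot go below 0.1. The number of arrays limits precision.

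The genes, lists, tests and alternatives were chosen with earlier results of these data known. Named were all genes of the rule that were called and at least 2-fold, the beta-catenin, Axin2 and TCF/LEF genes, and the 3 genes with the smallest p of each other list. Alternatives were other scalings, background corrections, filters, probe rules, sample sets, replicate and slide blocks, the deposited table and leaving out each array. The scanner files hold no mean signal, so normexp used median signals (offset 50). Normexp without 44 spots of flagged background, a filter on the groups compared and a test of every probe were added after seeing the data.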

Additional observations from a re-analysis of the deposited data

How the results depend on the processing

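The counts of called Wnt genes were 22, 33 and 31 for knockdown against control, PGC against control and PGC against knockdown. Without single arrays they ranged from 18 to 20, 30 to 33 and 27 to 32, and medians from -0.41 to -0.29, -0.56 to -0.45 and -0.26 to -0.14. Of all genes, 31.1% to 34.9%, 71.2% to 73.9% and 72.4% to 74.4% were called in these fits. Knockdown calls fell to 1 with spike-in scaling, where 4.92% of all genes were called. Normexp on median signals left 2, 16 and 13, with medians of 0.42, -0.21 and -0.64. Of all genes it left 4.32%, 29.4% and 35.2% called, with medians of 0.24, 0.20 and -0.26. Normexp without spots of flagged background left 13 in the knockdown comparison (median -0.13), where 33.8% of all genes were called. Its medians were -0.21 for PGC against control and -0.022 for PGC against knockdown. Spike-in scaling put the PGC medians at -1.47 and -1.15, and testing all 48 genes without the filter put the 3 medians at -0.24, -0.043 and 0.011. The cause of these moves was not tested, except that the unfiltered medians cover 8 more genes. All other alternatives kept each count within 1.5 times of its value. Under normexp on median signals the sign turned for 10 genes called after knockdown, Wnt3 (1.08), Wnt6 (0.63), Fzd1 (0.63), Wnt11 (0.56), Wnt8a (0.47), Fzd8 (0.46), Wnt9a (0.40), Wls (0.28), Tcf7l2 (0.22) and Sfrp5 (0.047), and for Tcf7 (0.25), not called. In PGCs against knockdown it turned for 5, Wnt7b (-0.80), Wnt5a (-0.61), Axin2 (-0.56), Fzd8 (-0.39) and Wnt9b (-0.30). In the repeat without flagged background no called gene's sign turned in any comparison. Averaging a gene's probes turned 1 sign, that of Fzd5 in PGCs against control. Tcf7l1, not called after knockdown, took values from -0.17 without control replicate 3 to 0.20 without knockdown replicate 4, and -0.0077 with the replicate block and within slide 1. Tcf7l2 in PGCs against knockdown was 0.0039 with quantile normalization. With the replicate number as a block, 22, 32 and 26 genes were called, beside 36.3%, 72.5% and 65.6% of all genes. After knockdown Wls (adjusted p = 0.054), Fzd1 (0.082) and Wnt9a (0.31) lost their calls and Wnt10a (0.012), Wnt5b (0.028) and Wnt16 (0.035) gained one; in PGCs Wnt7b lost its call against control, and Wnt7b, Wnt11, Axin1, Fzd9 and Lrp5 against knockdown. Same-numbered knockdown and control samples deviated together (r 0.37 and 0.39), and differently numbered ones of their slide did not (-0.07 and -0.03). On slide 2, however, knockdown 4 and control 3, which differ in number, also deviated together (r 0.51). With 2 same-numbered pairs of ES cell samples, and same-numbered PGC pairs at -0.03 to 0.02, the number was taken as a hint from the data and not as a pairing. Signals near background limit Wnt3, Wnt9b and Axin2 in ES cells and Wnt4, Wnt8a, Wnt10a, Wls and Sfrp5 in PGCs.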

Other observations

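Among protein-coding genes in the order of GRCm38.p6, 4 pairs of these Wnt ligand genes are next to each other. Wnt9b and Wnt3, neighbours on chromosome 11, were both higher in PGCs than in control cells (2.07 and 6.30). Both had passed the filter only through the PGCs. Wnt6 and Wnt10a, neighbours on chromosome 1, went apart there, with Wnt6 at 2.84 and Wnt10a at -2.51 and above background on no PGC array. For the other 2 pairs, Wnt3a with Wnt9a and Wnt10b with Wnt1, only Wnt9a and Wnt1 were above background, on all 9 arrays. The pairs were looked at after the values were known, and no test was made of them.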
